A study of Mus musculus with 3 samples.

Results

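The 64 genes described here encode carriers that move amino acids, small peptides and close relatives such as taurine and creatine across membranes. They were chosen by symbol as the SLC1, SLC3, SLC6, SLC7, SLC15, SLC36, SLC38 and SLC43 genes with at least 1 protein-coding transcript whose symbol ends in a number, leaving out Slc7a2 and Slc7a11. The pattern thereby also leaves out the SLC6 genes Slc6a20a and Slc6a20b, and values of all 4 stand beside their families below. They held 388 transcripts and made up 64 of 22028 protein-coding genes. RNA bound to chromatin was sequenced after ribosomal RNA depletion from macrophages that had been grown in culture from C57BL/6J mouse bone marrow. Cultures were first exposed for 12 h to 100 ng/ml Lipid A, the Toll-like receptor 4 ligand of lipopolysaccharide. They were then kept without it for 12 h and given 100 ng/ml again for 120 min before collection. All 3 libraries were biological replicates of this condition, made from 1 µg, 250 ng and 500 ng of RNA for replicates 1, 2 and 3. The labels give the same donor for all 3 and do not give an age or a sex. Nothing says that they came from separate animals, so the SD describes how these samples scatter, and that scatter may be technical. Untreated or singly stimulated cells were not analysed here, so every value is a level in repeatedly exposed cells and cannot be read as a response to Lipid A.

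Amino acid carriers differ in what they move, in which direction and in which membrane. The SLC7 light chains of the LAT family reach the cell surface as partners of an SLC3 heavy chain and exchange 1 amino acid for another. Most SLC38 and SLC6 carriers draw on the sodium gradient, while SLC15 carriers and some SLC36 carriers use protons. Several members of SLC15, SLC36 and SLC38 sit in the membrane of the lysosome. In macrophages the lysosome breaks down engulfed protein, and its amino acids are read by the kinase complex mTORC1. RNA on chromatin is enriched in transcripts that are still being made or spliced, so levels here describe nascent and retained RNA and not protein or transport.

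Replicates 1, 2 and 3 held 10293545, 17820066 and 17548564 expected counts, of which 33582, 44164 and 35888 fell on the 64 genes. A gene without a count could still make up to 2.91e-05%, 1.68e-05% and 1.71e-05% of those totals, the share that 3 counts would give. Such limits cover counting error only. Levels are given as TPM, transcript abundance scaled by length and by the library total, from the alignment-based table unless stated. Expressed here means a TPM of 1 or more in each of the 3 libraries. All 10 macrophage markers were expressed, led by Adgre1 (F4/80) at 708 ± 128 TPM (SD, n = 3 here and below), Lyz2 at 129 ± 56.4 and Mertk at 94.8 ± 12.1. None of 29 markers of neutrophils, B cells, T cells, erythroid cells, dendritic cells, fibroblasts or mast cells was expressed by this rule. Among them, 9 had no count at all, and the summed level of a list reached at most 2.03 TPM in a library, for dendritic cells. By the read-based table, the T cell marker Cd3d reached a mean of 14.1 TPM, against 1 count in the alignment-based table, and 2 dendritic cell markers reached the threshold.

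Of the 64 transporter genes, 19 were expressed, which is 29.7% of them against 42% of all protein-coding genes. In bulk samples, fewer cells that express a gene and less RNA per cell cannot be told apart. The transcripts came mostly from a few genes. Slc6a6 alone held 23.0% ± 5.11 of the summed TPM of the 64 genes, the 3 highest genes held 55.5% ± 4.93 and the 10 highest 88.8% ± 1.70. In every library 13 members lay above the median expressed gene, whose TPM was 9.95, 13.9 and 12.1 in replicates 1, 2 and 3. That is 20.3% of members against 18.5% of protein-coding genes. No count fell on 25 members in any library, 39.1% against 32.7% of protein-coding genes, and 20 had counts but stayed under the threshold. The median level over all 64 members was −2.55 ± 0.26 on the log2(TPM + 0.1) scale, against −1.04 ± 0.09 over all protein-coding genes. Over expressed genes alone it was 4.77 ± 0.09 for members and 3.58 ± 0.24 for protein-coding genes.

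**Figure D1:**
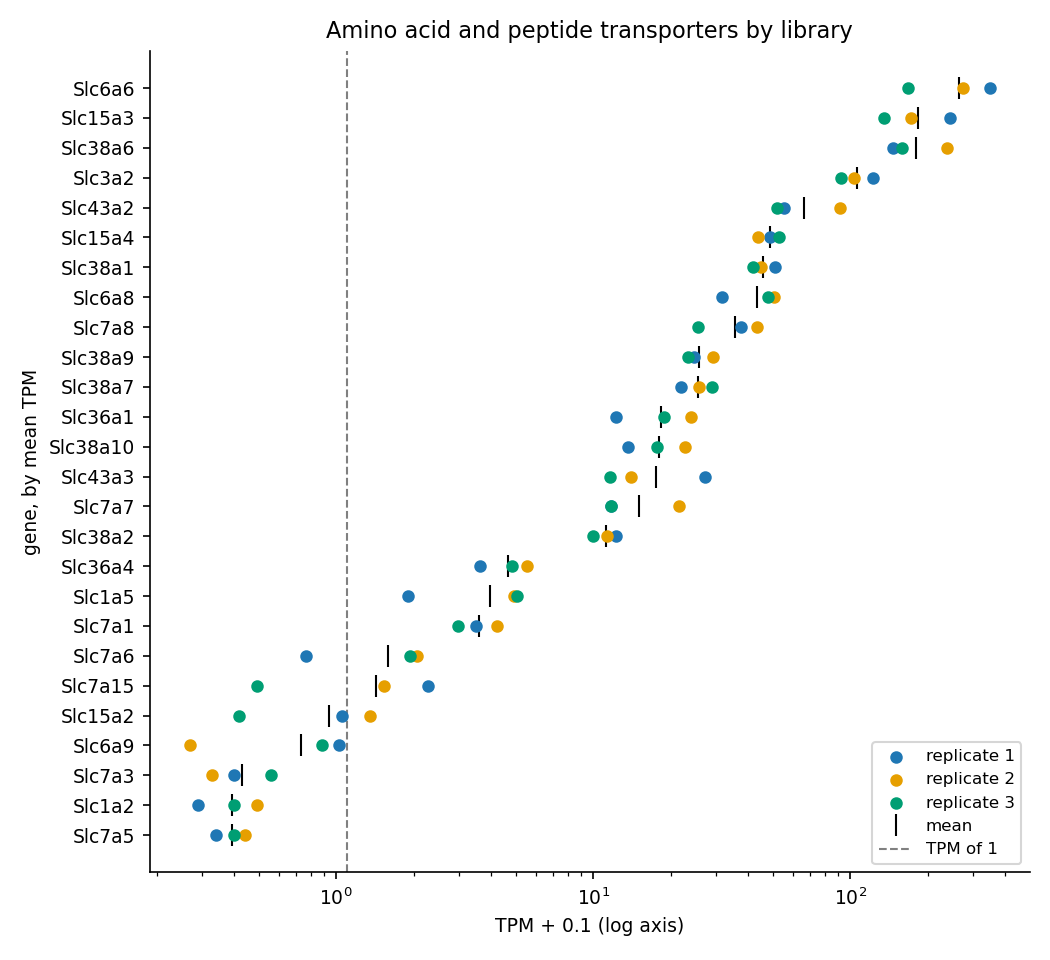
TPM + 0.1 on a log axis for the 26 members of highest mean TPM, with 1 point per library, a tick at the mean and a dashed line at a TPM of 1. Slc6a6 leads with a mean of 264, 16 genes lie at about 10 or above, and Slc7a5 sits under the line in all 3 libraries.

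Peptide and histidine carriers of the SLC15 family gave the second-highest member. Slc15a3 (chr19:10839727-10859362, + strand, mm10), a proton-coupled carrier of histidine and small peptides in the endolysosomal membrane, stood at 244, 173 and 135 TPM in replicates 1, 2 and 3, a mean of 184 ± 55.4. Its relative Slc15a4 (chr5:127595664-127632897, − strand), which passes bacterial muramyl peptides from endosomes to NOD sensors and takes part in TLR7 and TLR9 signalling, stood at 48.7, 43.8 and 52.9 TPM, a mean of 48.5 ± 4.58. Of its 52.9 TPM in replicate 3, 19.96 lay in a processed transcript of 200 bases, Slc15a4-209, on 6.28 expected counts. The small SD and the highest value in replicate 3 thus depend on that isoform. By the read-based table Slc15a4 had 86.9, 73.3 and 57.6 TPM, lowest in replicate 3. The alignment-based values of the pair did not overlap. Slc15a3 was higher by 1.88 ± 0.49 on the log2 scale, in 3 of 3 libraries. With an exact sign-flip test, two-sided, p was 0.25, the smallest it can reach with 3 libraries, and the 12 pairs tested by that exact test all gave p = 0.25, also after Benjamini-Hochberg adjustment. With coding isoforms alone the distance from Slc15a3 to Slc15a4 was wider, at 3.43 ± 0.15 on the log2 scale, in 3 of 3 libraries. Slc15a2, the kidney-type peptide carrier PEPT2, had 0.95, 1.25 and 0.32 TPM from 37 counts, and the intestinal carrier gene Slc15a1 and Slc15a5 had no count. By the read-based table Slc15a1 had 0.72, 1.44 and 1.10 TPM and Slc15a5 had 0.94, 4.62 and 4.09.

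The level of Slc15a3 was shared between a coding isoform and one that keeps introns. Slc15a3-201, with 2345 bases, had 167, 90.6 and 74.5 TPM, and the retained-intron isoform Slc15a3-203, with 4868 bases, had 73.8, 78.5 and 56.8 TPM. The coding isoform was thus the more variable, and it was higher than the other in each library. By expected counts, coding isoforms held 51.3%, 34.3% and 37.3% of the gene, so the longer isoform held more in replicates 2 and 3. Reads of these isoforms differ at sites such as intron 6 of 7 of the coding isoform (chr19:10856047-10857182, 1136 bases). The lines below show, from the GENCODE M21 transcripts on mm10, the last 30 bases of the exon before it, followed by 30 bases of the next exon in the spliced form or by 30 bases of the intron, in capitals, in the retained form. Each is 5′ to 3′ on the transcript strand and lies in coding sequence apart from the intron.
Slc15a3 spliced: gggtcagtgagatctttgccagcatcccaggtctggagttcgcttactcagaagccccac
Slc15a3 retained: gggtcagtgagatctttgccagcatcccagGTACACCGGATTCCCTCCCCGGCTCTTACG
The protein-coding gene Tmem132a lies on the opposite strand and shares 1541 bases with the exons of Slc15a3-203, 31.7% of its length, but 94 bases with Slc15a3-201, 4.01%. Tmem132a itself stood at 114 ± 39.3 TPM. Strand use in counting is not stated by the labels or headers. Reads of these overlapping genes thus cannot be told apart, and their part in the Slc15a3 level was not tested.

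The heavy chains and light chains that pair at the cell surface were expressed at very different levels. Slc3a2 (chr19:8706882-8723369, − strand) encodes 4F2hc, also called CD98, the heavy chain that carries most LAT family light chains to the surface. It stood at 123, 104 and 92.3 TPM, a mean of 106.3 ± 15.6, higher than 94.4% of expressed protein-coding genes. Slc3a1, the heavy chain of the kidney cystine carrier, had 0.45, 0.04 and 0 TPM.

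Among the 9 light chain genes of the set, 2 were expressed. The light chain Slc7a11 (xCT), which is no member, was expressed at 5.65, 5.18 and 14.1 TPM. Slc7a8 (LAT2, chr14:54722209-54781946, − strand), an exchanger of neutral amino acids, had 37.6, 43.3 and 25.6 TPM, a mean of 35.5 ± 9.04. Slc7a7 (y+LAT1, chr14:54369442-54417780, − strand), which exports arginine and lysine and is mutated in human lysinuric protein intolerance, had 11.7, 21.4 and 11.6 TPM, a mean of 14.9 ± 5.64. Replicate 2 was the highest for both. Slc7a5 (LAT1, chr8:121881150-121907694, − strand), the carrier of leucine and other large neutral amino acids in proliferating cells, had 0.24, 0.34 and 0.30 TPM from 43 counts in all. Slc7a6 (y+LAT2) had 0.66, 1.96 and 1.84 TPM, under the threshold in replicate 1 and above it in the others. Slc7a15 had 2.17, 1.44 and 0.39 TPM and was under it in replicate 3. No count fell on Slc7a9, Slc7a10, Slc7a12 or Slc7a13. By the read-based table Slc7a13 had 0.94, 4.27 and 3.66 TPM, Slc7a10 had a mean of 0.025, and Slc7a9 and Slc7a12 had 0.

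Slc3a2 exceeded Slc7a5 by 8.08 ± 0.37 on the log2 scale and Slc7a6 by 6.19 ± 1.00, in 3 of 3 libraries each. Slc7a5 lay below Slc7a8, with a difference of −6.47 ± 0.42, again in 3 of 3 libraries. By the read-based table the distances to Slc7a5 were smaller, at 6.42 ± 0.78 below Slc3a2 and a difference of −3.77 ± 0.58 to Slc7a8. Slc7a5 was also below Slc7a6 in 3 of 3 libraries, with a difference of −1.89 ± 0.63, but read-based values gave −0.18 ± 0.86 and put Slc7a5 higher in 2 of 3. With coding isoforms alone the difference was −0.62 ± 1.57, with Slc7a5 higher in replicate 1, so the order of these genes was not settled. The read-based table gave Slc7a5 2.06, 4.11 and 1.27 TPM, of which a processed transcript of 174 bases, Slc7a5-203, held 1.73, 3.59 and 0.89. The coding isoform Slc7a5-201 had 0.31 ± 0.036 TPM read-based and 0.28 ± 0.038 TPM alignment-based, so it was low by both.

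Among the 4 member genes of the cationic (CAT) branch of SLC7, 1 was expressed. Slc7a2 (CAT2), which is no member, was expressed too, at 15.3, 9.85 and 10.4 TPM, and lay above Slc7a1 in each library. Slc7a1 (CAT1, chr5:148327410-148399904, − strand), a general importer of arginine and lysine, had 3.41, 4.14 and 2.89 TPM, a mean of 3.48 ± 0.63 and the lowest of the 19 expressed members. It was higher than Slc7a6 by 1.29 ± 0.82 on the log2 scale, in 3 of 3 libraries. Slc7a3, Slc7a4 and Slc7a14 had 35, 4 and 27 counts in all and means of 0.33, 0.24 and 0.07 TPM.

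SLC38 was the family with the most expressed genes, 6 of 11. Slc38a6 (chr12:73286779-73354049, + strand), a less studied member, had 147, 238 and 158 TPM, a mean of 181 ± 49.7. In order of mean level it stood next to Slc15a3, and the pair changed places between libraries, with Slc15a3 higher in 1 of 3. Slc38a1 (SNAT1, chr15:96571418-96642913, − strand), a sodium-coupled glutamine importer, had 50.8, 44.9 and 41.8 TPM, a mean of 45.9 ± 4.57. Slc38a2 (SNAT2, chr15:96687392-96699730, − strand), the neighbouring gene on chromosome 15 and a carrier known to be induced when amino acids run short, had 12.2, 11.2 and 9.88 TPM, a mean of 11.1 ± 1.17. The distance between these neighbours was the steadiest of the 12 pairs, at 2.04 ± 0.04 on the log2 scale, with ratios of 4.16, 4.002 and 4.23 in replicates 1, 2 and 3.

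Lysosomal members of SLC38 were expressed as well. Slc38a9 (chr13:112660751-112738749, + strand), the lysosomal arginine sensor upstream of mTORC1, had 24.6, 29.1 and 23.4 TPM, a mean of 25.7 ± 3.03. Slc38a7 (chr8:95835920-95853539, − strand), which releases glutamine from lysosomes, had 21.8, 25.7 and 29.0 TPM, a mean of 25.5 ± 3.59. Levels of these genes did not separate, the first being higher in 2 of 3 libraries. Slc38a10 (chr11:120103960-120151346, − strand) had 13.6, 22.7 and 17.6 TPM. Slc38a8 had 1 count, and Slc38a3, Slc38a4, Slc38a5 and Slc38a11 had none.

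Carriers of the SLC36 family were represented by 2 of 4 genes. Slc36a1 (PAT1, chr11:55204350-55236330, + strand), which exports small neutral amino acids from lysosomes, had 12.2, 23.96 and 18.8 TPM, a mean of 18.3 ± 5.89. Slc36a4 (PAT4, chr9:15709738-15743361, + strand) had 3.54, 5.41 and 4.72 TPM and was lower by 1.95 ± 0.18 on the log2 scale, in 3 of 3 libraries. Slc38a9 exceeded Slc36a1 by 0.53 ± 0.41, in 3 of 3 libraries, but the difference was 0.07 ± 0.39 in read-based values, with Slc38a9 higher in 1 of 3. With coding isoforms alone it turned to −2.00 ± 0.06, with Slc36a1 higher in 3 of 3. Slc36a3 had 6 counts and Slc36a2 none.

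In SLC43, which moves large neutral amino acids without an ion gradient, 2 of 3 genes were expressed. Slc43a2 (LAT4, chr11:75531694-75577575, + strand) had 55.2, 91.4 and 51.7 TPM, a mean of 66.1 ± 21.98. Slc43a3 (chr2:84936579-84958509, + strand), whose human form carries purine nucleobases, had 27.1, 14.0 and 11.6 TPM, a mean of 17.5 ± 8.33, and Slc43a1 (LAT3) had no count. Slc43a2 was the higher of the pair by 1.96 ± 0.85 on the log2 scale, in 3 of 3 libraries. The antisense gene Gm45606, at 14.1 ± 4.31 TPM, shares 922 bases, 9.18%, with the exons of Slc43a2, and its part in the Slc43a2 level was not tested. The overlap was uneven between coding isoforms. It took up 75.2% of Slc43a2-205 (mean 6.04 TPM) and 66.5% of Slc43a2-207 (3.77 TPM), but 3.56% of Slc43a2-201 (19.3 TPM).

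SLC1 holds glutamate carriers and neutral exchangers. All 5 glutamate carrier genes stayed under the threshold, with Slc1a2 (GLT-1) at 62 counts, Slc1a1 at 6, Slc1a3 (GLAST) at 5 and Slc1a6 and Slc1a7 at none. Slc1a5 (ASCT2, chr7:16781340-16798274, + strand), the sodium-dependent glutamine exchanger, had 1.80, 4.82 and 4.95 TPM, a mean of 3.86 ± 1.78, with replicate 1 the lowest. It was above the related Slc1a4 (ASCT1), which had 21 counts, by 4.002 ± 0.73 on the log2 scale, and below Slc38a2, with a difference of −1.63 ± 0.93, each in 3 of 3 libraries. With coding isoforms alone the difference to Slc1a4 was −0.51 ± 1.25, both genes being near 0.

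Nearly all Slc1a5 signal was assigned outside its coding isoform, but the gene had only 45, 123 and 173 expected counts. The coding isoform Slc1a5-201, with 2764 bases, had 0, 0.30 and 0 TPM. The retained-intron isoform Slc1a5-202, close in length with 2807 bases, had 1.22, 2.57 and 3.68, so the split rests on few reads. Slc1a5-202 keeps intron 7 of 8 of the coding isoform (chr7:16795953-16796023, 71 bases), shown in the same way as for Slc15a3.
Slc1a5 spliced: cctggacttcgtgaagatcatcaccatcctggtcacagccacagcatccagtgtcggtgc
Slc1a5 retained: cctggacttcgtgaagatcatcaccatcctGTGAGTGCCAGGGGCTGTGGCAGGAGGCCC
Isoforms that keep an intron held 97.9% ± 3.59 of its TPM, the highest share among the 19 expressed members. The read-based table likewise gave Slc1a5-201 0, 0.17 and 0 TPM and Slc1a5-202 1.83 ± 0.75.

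SLC6 contributed 19 members and 2 expressed genes, neither of which carries a proteinogenic amino acid. Slc6a6 (chr6:91684053-91759066, + strand), the sodium and chloride-coupled taurine carrier, had the highest mean of the 64 genes in the alignment-based table. It had 349, 275 and 167 TPM, a mean of 264 ± 91.5, higher than 98.6% of expressed protein-coding genes. In each library it lay above Slc15a3, by 0.50 ± 0.18 on the log2 scale. In the read-based table Slc38a6 led instead, at 389 ± 42.6 against 336 ± 89.6 TPM for Slc6a6, and was the higher in 2 of 3 libraries. Slc6a8 (chrX:73673150-73682502, + strand), the creatine carrier, had 31.6, 50.4 and 47.8 TPM, a mean of 43.3 ± 10.2. None of the 8 SLC6 amino acid carriers among the 64 genes was expressed, the highest being the glycine carrier Slc6a9 at 0.93, 0.17 and 0.78 TPM. Slc6a20b, left out by its symbol, was expressed at 2.05, 2.38 and 2.38 TPM, and Slc6a20a had no count. The monoamine carriers Slc6a2 and Slc6a3 had no count and the serotonin carrier Slc6a4 had 9.

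Both SLC6 genes had several isoforms, and coding ones held the minority of the TPM. Of the Slc6a6 TPM, 28.8% ± 4.56 lay in coding isoforms, 58.2% ± 3.07 in isoforms that keep an intron and 12.4% ± 7.73 in one annotated for nonsense-mediated decay. That last isoform, Slc6a6-205, had 74.6, 20.8 and 14.1 TPM, while the main coding isoform Slc6a6-201 had 72.0, 72.5 and 47.5. Replicate 1 was thus far above the others for Slc6a6-205 and about equal to replicate 2 for Slc6a6-201. On the opposite strand, Gm44981 (38.3 ± 10.7 TPM) shares 117 bases, 1.38%, with the exons of Slc6a6. For Slc6a8, 29.8% ± 6.48 lay in coding isoforms and 57.2% ± 2.49 in isoforms that keep an intron. By shares of expected counts this turned for Slc6a6 in each library, with 72.4%, 80.5% and 81.2% in coding isoforms. For Slc6a8 it turned in replicates 2 and 3 but not in replicate 1, with 39.2%, 60.7% and 62.5% in replicates 1, 2 and 3. Slc6a8-205, at 6.42, 7.12 and 7.99 TPM, keeps intron 3 of 12 (chrX:73676900-73677320, 421 bases) of the coding isoform Slc6a8-201, at 4.90, 7.99 and 7.30 TPM.
Slc6a8 spliced: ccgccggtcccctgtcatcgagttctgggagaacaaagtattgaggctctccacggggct
Slc6a8 retained: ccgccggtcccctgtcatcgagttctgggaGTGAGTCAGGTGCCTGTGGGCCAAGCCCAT

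The order of levels among the 19 expressed members was only partly fixed. Of 18 neighbouring steps in the order of mean TPM, 6 went the same way in all 3 libraries and 12 did not. Those 6 were Slc6a6 above Slc15a3, Slc38a6 above Slc3a2, Slc3a2 above Slc43a2, Slc7a8 above Slc38a9, Slc38a7 above Slc36a1 and Slc38a2 above Slc36a4. The last of them was the widest, at 1.28 ± 0.41 on the log2 scale, and separated 16 genes of higher level from Slc36a4, Slc1a5 and Slc7a1.

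**Figure D2:**
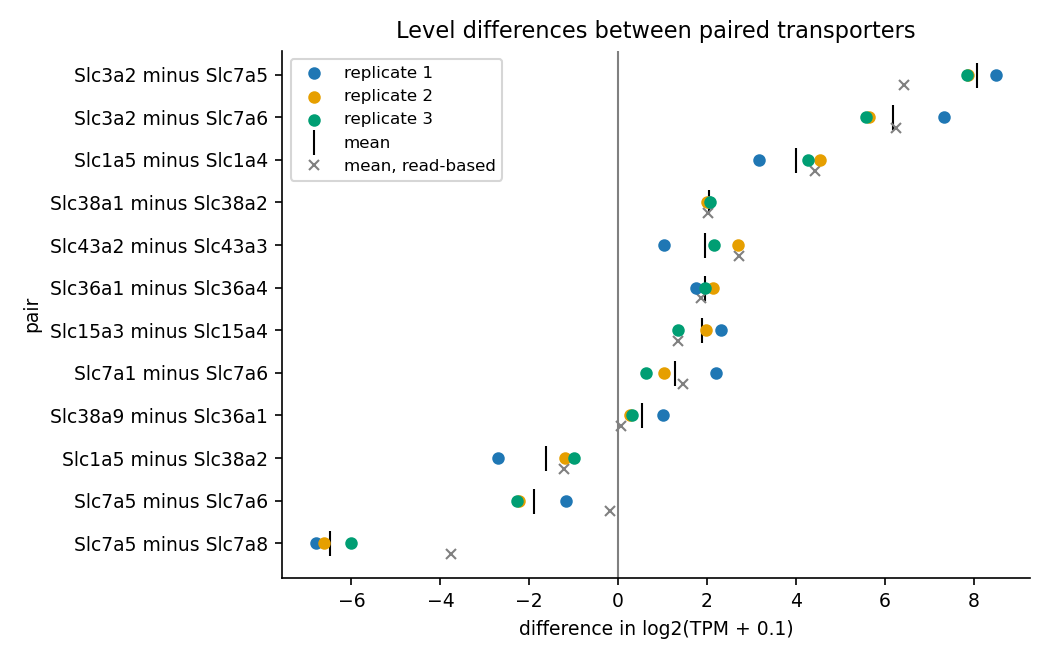
Difference in log2(TPM + 0.1) within each library for the 12 pairs, first gene minus second, with 1 point per library, a tick at the mean and a grey cross for the mean of the read-based values. Slc38a1 minus Slc38a2 stays between 1.99 and 2.07, while Slc3a2 minus Slc7a5 lies between 7.85 and 8.50 and falls to 6.42 in read-based values.

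Counting coding isoforms alone changed the order of mean levels at the top, in a comparison chosen after the data were seen. By that measure 18 members were expressed, 28.1% against 36.5% of protein-coding genes, and Slc1a5 was the one lost. Slc15a3 then had the highest mean, 111 ± 49.6 TPM, followed by Slc3a2 at 91.4 ± 14.7, Slc38a6 at 88.8 ± 34.0 and Slc6a6 at 73.4 ± 16.6. Slc15a3 led in replicate 1 only, at 167 TPM. In replicates 2 and 3 Slc38a6 was the higher, at 126.7 and 78.7 TPM against 90.6 and 74.5 for Slc15a3. Slc15a4 moved from place 6 to 13 at 10.1 ± 4.27 TPM, Slc38a9 from 10 to 17 at 2.80 ± 0.96, and Slc7a7 from 15 to 8 at 14.5 ± 6.00.

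Across the 19 expressed members, 15 had an isoform with a retained intron. Over those 15, the median share of TPM in such isoforms was 43.8% ± 1.85, against 47.0% ± 1.49 over 5967 expressed protein-coding genes that have one. Coding isoforms held a median of 54.5% ± 3.12 over members and 53.7% ± 0.32 over 9236 expressed genes. More than 50% of the TPM lay outside coding isoforms for 8 of the 19, against 45.8% of expressed protein-coding genes, so transporters were near the background in this respect. Shares of counts, in which a long isoform weighs more, put a median of 76.6% ± 3.51 in coding isoforms of members, against 76.5% ± 1.47 over expressed protein-coding genes. By that measure 5 of 19 members were over 50% outside coding isoforms, against 27.7% of those genes.

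Individual genes ranged widely around those medians. After Slc1a5, Slc6a6 and Slc6a8, the highest shares in isoforms that keep an intron were 56.5% ± 2.06 for Slc38a1, 54.6% ± 3.36 for Slc38a7 and 51.3% ± 9.50 for Slc38a9. The share was 0% for Slc7a7, Slc36a1, Slc36a4 and Slc38a10, none of which has such an isoform in the annotation. Slc3a2 had the lowest share of those that do, at 14.2% ± 1.20. For Slc38a9 coding isoforms held 10.8% ± 2.85 of the TPM, and its leading isoform by TPM was the processed transcript Slc38a9-203. By expected counts its coding isoform Slc38a9-201, of 8910 bases, led with 200, 509 and 409 against 111, 282 and 196 for Slc38a9-203. Slc15a4 was less steady between libraries, with 30.3%, 21.3% and 11.9% in coding isoforms, and a processed transcript of 200 bases that had 0, 2.17 and 19.96 TPM. That last value rests on 6.28 expected counts, and the read-based table gave this isoform 7.74 TPM in replicate 1 and about 0 in the others. By shares of counts the coding part was 23.8%, 20.7% and 20.99% for Slc15a4 and 39.4%, 48.5% and 47.6% for Slc38a9. It was 82.7%, 86.5% and 87.6% for Slc38a7 and 50.7%, 50.3% and 47.8% for Slc38a1.

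Slc38a2 kept a steady split, with 41.6%, 41.2% and 38.9% of its TPM in Slc38a2-202. That isoform keeps intron 3 of 15 of the coding isoform Slc38a2-201 (chr15:96698038-96698181, 144 bases).
Slc38a2 spliced: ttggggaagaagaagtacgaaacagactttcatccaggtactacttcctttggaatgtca
Slc38a2 retained: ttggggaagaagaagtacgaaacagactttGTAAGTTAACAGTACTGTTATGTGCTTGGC
In all the retained forms printed, the capitals open with GT, the usual first bases of an intron.

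**Figure D3:**
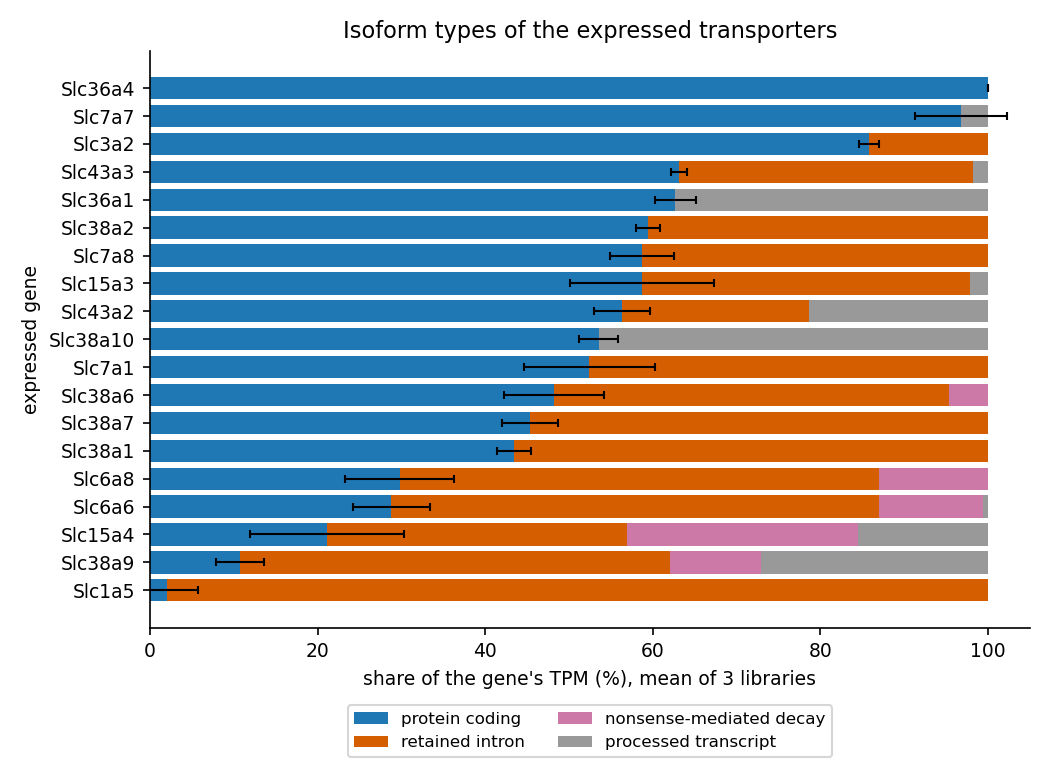
Share of each expressed member's TPM, in percent, by isoform type as annotated, as stacked bars of the mean over 3 libraries with the SD of the coding share as a black line. Coding isoforms make up all of Slc36a4 and 2.07% of Slc1a5.

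A second deposited table, quantified from the reads without a genome alignment, gave higher values for most transporters. By it 26 members were expressed, 40.6% against 51.5% of protein-coding genes, and these included all 19. The other 7 were Slc6a9, Slc15a2, Slc7a5, Slc7a6, Slc38a8, Slc38a11 and Slc1a3. Slc15a5 and Slc7a13, without a count in the alignment-based table, missed the read-based threshold in replicate 1 only. Their differences between the tables, 4.78 and 4.69 on the log2(TPM + 0.1) scale, were larger than any among the 26. The read-based TPM was more than 2-fold higher for 10 of the 26, against 29.3% of 11387 protein-coding genes expressed by either table, and more than 2-fold lower for 0, against 0.158%. The median difference was 0.68 on the log2(TPM + 0.1) scale over the members and 0.53 over those genes, with no test since both tables come from the same reads.

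Among these 26 members, the largest differences were in genes of low level. Slc1a3 had 1.54, 4.93 and 4.75 TPM read-based against a mean of 0.043 alignment-based, and 2 retained-intron isoforms held nearly all of it. Slc38a11 had 1.64, 2.43 and 2.05 TPM read-based and no count in the other table, and Slc38a8 had 1.82, 1.19 and 1.35 TPM against 1 count. Next came Slc7a5, at 2.57 on the log2 scale, and Slc7a7, at 1.75, with a read-based mean of 49.9 ± 16.3 TPM. Slc7a7 shares 232 exon bases, 6.998%, with Oxa1l on the opposite strand, which had 19.2 ± 4.58 TPM. At the other end, Slc6a8 was lower read-based by a difference of −0.18, Slc7a8 by −0.14, and Slc38a1, Slc38a9 and Slc38a2 lay within 0.03 of no difference.

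**Figure D4:**
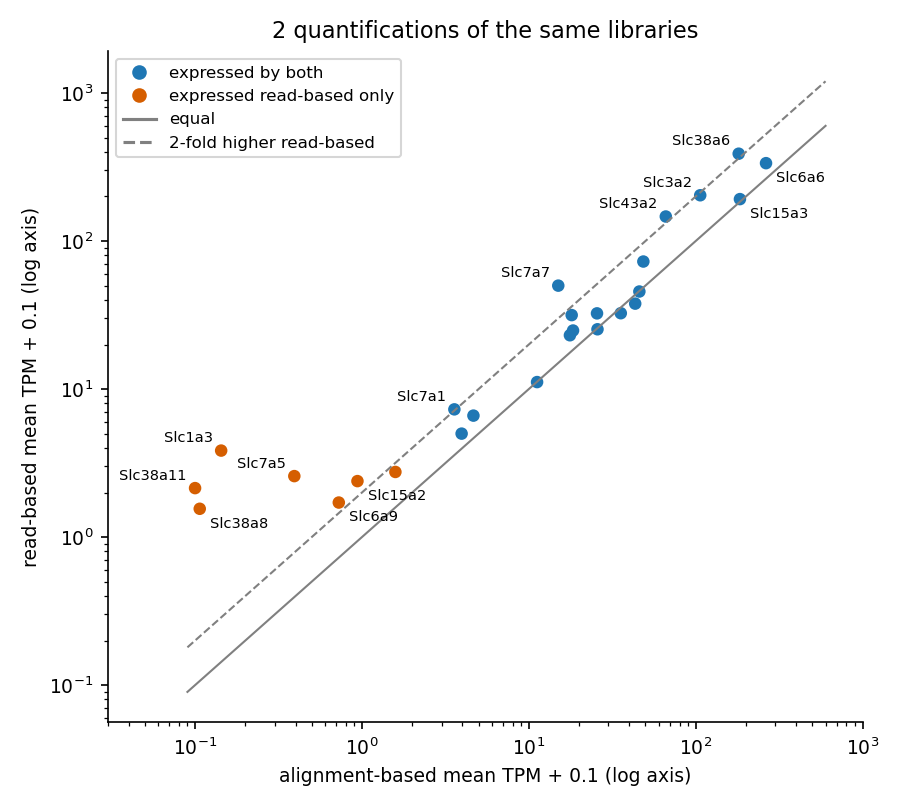
Mean TPM + 0.1 over 3 libraries in the read-based table against the alignment-based table, on log axes, for the 26 members expressed by either, in blue where expressed by both and orange where read-based only. Slc38a6 and Slc43a2 lie just above the dashed line of a 2-fold higher read-based value, and Slc1a3, Slc38a11 and Slc38a8 stand far above it at the left.

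Spread between the libraries was measured as the SD of log2(CPM + 0.5), where CPM is the count scaled to a common library size after TMM normalisation. Of the 64 members, 30 had at least 10 counts in all and could be measured. For 9 of them the SD was above 0.5, 30% of those measured against 15.5% of protein-coding genes, and their median SD was 0.36 against 0.26. The count fell to 3 with a prior count of 2 in place of 0.5, and to 5 without replicate 1. The share of protein-coding genes under those settings is not given here, so the comparison with 15.5% covers the main setting only. The 9 were Slc3a1, Slc7a15, Slc1a2, Slc43a3, Slc7a6, Slc15a2, Slc1a5, Slc15a3 and Slc6a6, of which the last 2, Slc43a3 and Slc1a5 were expressed. Several of them had few counts. Slc3a1 had 11.6, 1.23 and 0 expected counts, Slc7a15 had 31, 30 and 9, and Slc1a2 had 27, 10 and 25.

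Well-counted members also differed between libraries. Slc43a3 had 653, 458 and 451 counts, and its log2(CPM + 0.5) was 5.99 in replicate 1 against 4.72 and 4.76 in the others. Slc43a3 and Slc3a1 were more than 2-fold higher in replicate 1 than in both other libraries, as were 2.75% of protein-coding genes. Slc7a6, with 25, 100 and 102 counts, was more than 2-fold lower there, as were 1.45%. Slc15a3 had 9.73, 8.92 and 8.73 and Slc6a6 9.49, 8.89 and 8.47 on that scale, both highest in replicate 1. Replicate 1 also had the fewest counts and the largest RNA input, and the part of either in these differences was not tested. The steadiest expressed member was Slc38a10, with an SD of 0.09.

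**Figure D5:**
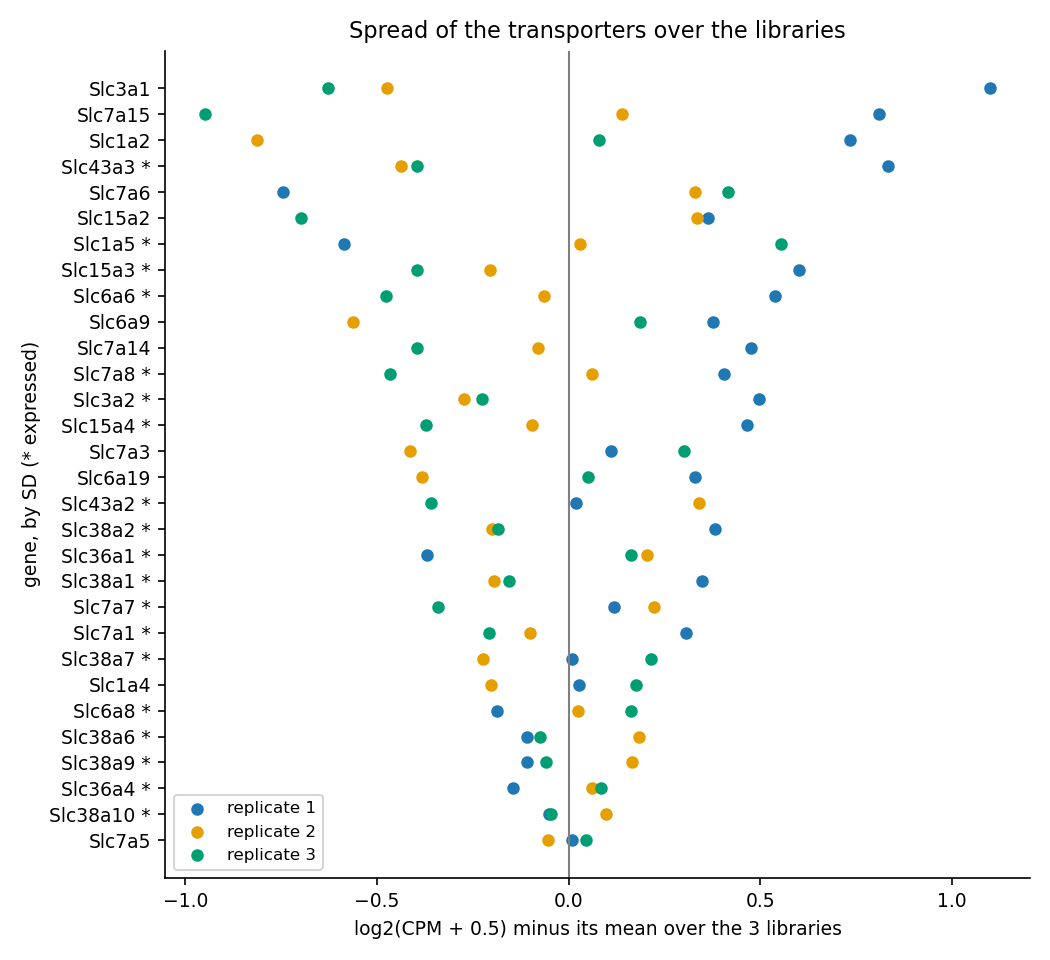
Deviation of log2(CPM + 0.5) from its mean over the 3 libraries for the 30 members with at least 10 counts, 1 point per library, ordered by SD, with expressed genes starred. Replicate 1 stands apart on the right for Slc3a1 and Slc43a3 and on the left for Slc7a6.

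Which library was highest also differed from gene to gene in TPM. Among the 19 expressed members, 6 were highest in replicate 1, 10 in replicate 2 and 3 in replicate 3, while 7, 1 and 11 were lowest in replicates 1, 2 and 3. Over all expressed protein-coding genes, 17.7%, 63.1% and 19.2% were highest in replicates 1, 2 and 3, while 63.6% were lowest in replicate 1 and 27.4% in replicate 3.

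Genes in lists that concern the sensing or use of amino acids were mostly expressed. In the list for lysosomal amino acid sensing to mTORC1, 36 of 42 genes were expressed, and the median was 3.34 ± 0.22 on the log2(TPM + 0.1) scale. Its highest genes were Fnip2 at 103 ± 11.7 TPM and Flcn at 42.3 ± 9.78, partners in the folliculin complex, with the transcription factor Mitf between them at 90.5 ± 7.70. The lowest was the cytosolic arginine sensor Castor1 at 0.067 ± 0.038. All 23 genes in the list of cytosolic tRNA synthetases and their complex partners were expressed, with a median of 3.64 ± 0.21. They ran from Cars at 56.6 ± 11.6, Qars at 40.8 ± 9.84 and Lars at 38.6 ± 14.4 down to the scaffold gene Aimp2 at 2.28 ± 0.99. The amino acid response list is wider, and its Eif2ak2 (PKR) does not itself sense amino acids. In it 20 of 27 genes were expressed, with a median of 2.97 ± 0.18. The highest were Eif2ak2 at 133 ± 31.9, Impact at 83.8 ± 29.4 and Nupr1 at 69.9 ± 23.98, and Stc2 had no count. These shares stand beside the 42% of all protein-coding genes given above.

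Partners of the endolysosomal SLC15 carriers were all expressed, 10 of 10, with a median of 4.98 ± 0.08 on the log2 scale. Unc93b1, which escorts nucleic acid-sensing Toll-like receptors to endosomes, stood at 248 ± 58.2 TPM, the peptidoglycan sensor Nod1 at 98.0 ± 38.3 and the transcription factor Irf5 at 53.0 ± 0.46. The lowest was 5430427O19Rik at 5.04 ± 1.47. In a list of 27 other carrier genes, mostly but not all for amino acids, 20 were expressed, with a median of 2.45 ± 0.05. They were led by the mitochondrial glutamate carrier Slc25a22 at 50.2 ± 5.75, Mfsd12, which brings cysteine into lysosomes and melanosomes, at 49.9 ± 4.16, and the aromatic amino acid carrier Slc16a10 at 30.2 ± 8.72. Slc17a6, Slc32a1 and Slc6a20a had no count.

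Promoter windows from RefSeq (GRCm38.p6, 250 bases before to 50 after an annotated start) were at hand for 46 members, 13 of them expressed, in 67 windows. Expressed members without a window were Slc6a6, Slc15a3, Slc38a1, Slc6a8, Slc43a3 and Slc1a5. Each window was searched on both strands for 4 motifs, counted independently where they overlap. The amino acid response element core TGATGNAA was in 5 of 67 member windows, 7.46%, against 3.97% of all 32851 windows, and Slc7a7 was the expressed member that held it. The E-box CACGTG, found in lysosomal gene promoters, was in 13.4% against 7.15%, with Slc38a7 and Slc36a1 among expressed members. An NF-kB-like core was in 29.9% against 20.7%, with Slc7a1 and Slc7a7. The interferon-stimulated response element core was in none of the member windows and in 3.44% of all windows. Windows of the same gene can overlap, and a match describes letters and not binding.

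The stretches that hold the matches of Slc7a7 and Slc36a1 run from 150 bases before to 30 after the annotated start, at chr14:54417915-54418094 on the − strand and chr11:55204190-55204369 on the + strand. They are shown 5′ to 3′ because each holds its motif 2 times, with TGATGNAA in capitals for Slc7a7 and CACGTG for Slc36a1. The Slc7a7 stretch belongs to a RefSeq start that lies upstream of the gene span given above, and Slc7a7 has other RefSeq windows.
Slc7a7: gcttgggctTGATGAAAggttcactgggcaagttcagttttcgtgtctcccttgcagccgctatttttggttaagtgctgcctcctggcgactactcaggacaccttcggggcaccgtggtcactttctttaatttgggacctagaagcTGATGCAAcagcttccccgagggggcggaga
Slc36a1: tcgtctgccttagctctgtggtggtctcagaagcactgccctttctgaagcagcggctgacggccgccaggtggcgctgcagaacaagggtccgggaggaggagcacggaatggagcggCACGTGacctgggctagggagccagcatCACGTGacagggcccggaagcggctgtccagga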

How the data were processed

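Chromatin RNA of 3 libraries was measured. Per the file headers, the authors deposited for each library a gene and a transcript table of expected (estimated) counts and TPM in the columns RSEM writes, called alignment-based here, and a transcript table of estimated counts and TPM in kallisto's columns, called read-based. Per the deposited notes the build is mm10 with GENCODE M21. Tool versions, settings and strand use: not given in the sources used here. TPM is a share of a fixed total, and protein-coding genes held 26.9%, 33.0% and 28.2% of it in replicates 1, 2 and 3, so abundant noncoding RNA lowers every level.

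Symbols, isoform types and positions came from GENCODE M21. Of 81881 gene rows, 55536 matched it. Read-based gene values are sums over transcripts. Log2 levels use TPM + 0.1. Pair differences are within libraries, with a sign-flip test that is exact and two-sided. Expected counts were rounded and normalised with TMM (edgeR 4.0.16, R 4.3.3) or, as an alternative, DESeq2 1.42.0 size factors, only for the SD of log2(CPM + 0.5) over genes of at least 10 counts. No gene was tested across conditions, since there is 1. That code was tested on simulated data.

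Per-library values are given for the 20 members of highest mean TPM, those in the pairs and the 5 of highest SD. Isoform shares are given for the 6 highest and 4 lowest members, table differences for the 5 largest each way, and other lists for their 3 highest genes and the lowest. 1 gene picked that way is not reported here. The members, pairs and lists were chosen with earlier results of these data known. In 5 of the lists 1 listed name matched no gene. Alternatives were other TPM thresholds, pseudocounts and prior counts, the read-based table, rescaling over protein-coding genes, shares of counts, no filter, and leaving out each replicate. Levels and pair differences from coding isoforms alone were added after the data were seen.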

Additional observations from a re-analysis of the deposited data

How the results depend on the processing

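The count of 19 expressed members stayed between 16 and 26 with TPM thresholds of 0.5 and 5, rescaling over protein-coding genes, the read-based table, coding isoforms alone or leaving out a replicate, and it rose to 32 when any count above 0 in all libraries sufficed. The median log2 level over all 64 members, −2.55, depended on how genes near 0 enter. It was −3.66 with a pseudocount of 0.01, 0.10 with a pseudocount of 1, 0.056 in read-based values, −1.56 after rescaling and 4.77 over expressed members alone. Rescaling over protein-coding genes multiplies TPM by a fixed factor per library, a log2 shift of 1.89, 1.60 and 1.83 in replicates 1, 2 and 3 (less on the log2(TPM + 0.1) scale for genes near 0), and all 19 expressed members moved by more than their SD, as did 10 in read-based values and 15 with coding isoforms alone. The count of members with an SD above 0.5 was 3 with a prior count of 2 and ranged from 5 to 12 on leaving out a replicate. These counts, and those of expressed members at the other thresholds, stand without the share of protein-coding genes by the same rule. With shares of expected counts, 5 members had over 50% outside coding isoforms and the median retained-intron share was 26.5%. The direction of all 12 mean pair differences held under the pseudocounts, the read-based table and leaving out each replicate, although the exact test cannot pass a threshold with 3 libraries. With coding isoforms alone, 2 of them reversed, to −2.00 for Slc38a9 minus Slc36a1 and −0.51 for Slc1a5 minus Slc1a4. Slc7a5 minus Slc7a6 kept its mean direction, at −0.62, but Slc7a5 was the higher in replicate 1. Depth limits members under about 10 counts, whose levels rest on a few reads.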
